A study of Mus musculus with 18 samples.

Results

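The 33 genes described here encode the glucose and lactate transporters, the glycolytic enzymes and their regulators, and HIF1 with its hydroxylases and a few of its targets. They were chosen by symbol, with earlier results of these data known, and are 33 of the 56748 gene IDs in the count table. Each was found, and each passed the filter on low counts that left 14985 genes for testing. For Aldoa, 2 IDs carried the symbol, and the abundant one, ENSMUSG00000030695, was used, since the other had at most 9 counts in any library.

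Messenger RNA was measured in the mouse line RN2, acute myeloid leukemia cells that carry MLL-AF9 and NrasG12D and whose genotype is otherwise labelled WT. The cells were transduced with lentivirus and sorted on day 5. There were 6 groups of 3 libraries. The nCas9 group carried the Cas9 nickase, the targeting part of a base editor, and the catalytic mutant group carried the whole editor with its evoA1 deaminase inactivated. The intact BE groups carried the active editor, and the seBE groups carried a split editor that rapamycin switches on. Intact BE and seBE cells received 1 nM rapamycin or vehicle for 24 h, and the nCas9 and catalytic mutant libraries are labelled as treated with vehicle. Every group therefore held a nickase delivered by virus, and no group of cells without a construct was used here. Rapamycin also inhibits the growth kinase complex mTORC1. Within seBE cells alone the drug does both, and the intact BE arms, where nothing is switched, show the drug with an editor that is always active. The stated question was whether changes in gene expression could underlie editor toxicity.

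Glycolysis splits glucose into pyruvate, which yields ATP in the cytosol. In proliferating blood cells and leukemias much of the pyruvate is reduced to lactate and exported. HIF1 is a transcription factor whose alpha subunit, encoded by Hif1a, is made continuously and destroyed when oxygen is present, because the hydroxylases encoded by the Egln genes mark it for degradation. When it is stable it binds short DNA elements with the core letters ACGTG or GCGTG and raises transcription of glycolytic genes, of Pdk1 and of hypoxia genes such as Bnip3 and Vegfa. The messenger RNA level of Hif1a is therefore no measure of HIF1 activity.

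The upstream promoter sequences of 7 genes are shown because results below involve these genes and because they carry the HIF1 core letters. Chosen this way, they do not show how common the letters are among the genes that changed. They come from RefSeq on build GRCm38.p6 and are written 5′ to 3′ on the strand of the gene, without bases that the annotation assigns to an exon. Capitals mark ACGTG and GCGTG on either strand, where CACGT and CACGC are the reverse complements.

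Hif1a, chr12:73907617-73907866, + strand, ending at the start site: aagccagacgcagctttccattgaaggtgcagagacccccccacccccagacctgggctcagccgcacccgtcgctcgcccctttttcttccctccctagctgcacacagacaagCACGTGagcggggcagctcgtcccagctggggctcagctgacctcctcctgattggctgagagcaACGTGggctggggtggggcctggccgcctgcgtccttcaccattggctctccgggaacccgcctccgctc

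Pgk1, chrX:106186850-106187099, + strand, ending at the start site: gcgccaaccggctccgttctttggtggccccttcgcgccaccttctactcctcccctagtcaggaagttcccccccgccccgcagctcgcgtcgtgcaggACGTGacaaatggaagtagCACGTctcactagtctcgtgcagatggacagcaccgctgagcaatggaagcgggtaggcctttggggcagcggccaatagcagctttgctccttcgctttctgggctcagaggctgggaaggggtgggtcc

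Pgam1, chr19:41911621-41911870, + strand, ending at the start site: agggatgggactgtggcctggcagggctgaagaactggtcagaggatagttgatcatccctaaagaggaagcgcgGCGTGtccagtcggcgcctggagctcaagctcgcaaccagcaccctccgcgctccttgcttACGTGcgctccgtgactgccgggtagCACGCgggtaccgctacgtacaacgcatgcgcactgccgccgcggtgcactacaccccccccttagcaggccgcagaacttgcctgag

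Gapdh, chr6:125165774-125166023, - strand, ending at the start site: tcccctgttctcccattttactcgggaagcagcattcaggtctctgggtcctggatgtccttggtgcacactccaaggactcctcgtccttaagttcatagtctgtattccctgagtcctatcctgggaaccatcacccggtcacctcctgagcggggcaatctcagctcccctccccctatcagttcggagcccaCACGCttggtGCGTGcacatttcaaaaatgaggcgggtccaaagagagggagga

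Ldha, chr7:46845554-46845803, + strand, ending at the start site of the upstream promoter: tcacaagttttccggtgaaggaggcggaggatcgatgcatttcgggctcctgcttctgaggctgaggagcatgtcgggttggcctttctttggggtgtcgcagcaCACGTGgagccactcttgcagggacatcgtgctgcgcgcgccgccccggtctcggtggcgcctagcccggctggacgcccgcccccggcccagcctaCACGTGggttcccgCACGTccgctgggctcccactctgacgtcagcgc

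Bnip3, chr7:138909520-138909756, - strand, ending 13 bases before the start site: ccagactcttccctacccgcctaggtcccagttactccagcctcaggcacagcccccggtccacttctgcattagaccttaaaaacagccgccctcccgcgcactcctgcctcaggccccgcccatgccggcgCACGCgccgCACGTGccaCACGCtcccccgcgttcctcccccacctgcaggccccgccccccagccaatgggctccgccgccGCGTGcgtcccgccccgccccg

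Ankrd37, chr8:45999868-46000100, - strand, ending 17 bases before the start site: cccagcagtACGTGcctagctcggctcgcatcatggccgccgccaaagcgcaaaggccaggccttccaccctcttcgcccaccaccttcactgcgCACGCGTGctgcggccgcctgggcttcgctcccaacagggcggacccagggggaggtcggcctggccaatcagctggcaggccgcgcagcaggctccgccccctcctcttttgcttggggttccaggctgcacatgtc

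The stretch of Hif1a holds 3 matches and 1 CACGTG, the palindrome that contains ACGTG on both strands, that of Ldha holds 5 matches and 2 CACGTG, and that of Bnip3 holds 5 matches and 1 CACGTG. Ldha has a second promoter window, not shown, whose upstream stretch (chr7:46846832-46847081) holds 1 match and 0 CACGTG. RefSeq's table held 32 of the 33 genes, with 46 promoter windows of 300 bases, and no entry for Slc2a3. Start sites are those of RefSeq. Bases just after the start site were found in a GENCODE transcript of the gene for 41 of the 46 windows. For the windows shown of Hif1a, Pgam1 and Ldha they were not found. At least 1 window held ACGTG or GCGTG on either strand in 29 of the 32 genes (90.6%), against 66.7% of 9917 tested genes in the table and 46.7% of all 27025 genes in it. No window of Eno2, Gpi1 or Tpi1 held either, and Gpi1 and Tpi1 are among the genes called below. ACGTG alone was present in 23 genes (71.9%, against 29.2% of tested genes), and CACGTG in 6 (18.8%, against 11.7%). A gene counts if any of its windows matches, and the 32 genes had more windows per gene (46 in all) than the 9917 tested genes (12628 in all). The windows of the 32 genes had a median GC content of 62.2%, against 60.3% in tested genes, and a median of 20 CG pairs in both. A match of letters is a description of the window and does not show that HIF1 binds there, and many of these genes entered the list because they are known HIF1 targets.

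Library totals ran from 13835979 to 23284932 counts. Levels are CPM, counts divided by library sizes that edgeR's TMM method scaled, given as the mean and SD over n = 3 libraries. Of 13 markers of myeloid leukemia cells, 13 were above 1 CPM in every group. All 4 erythroid and all 5 lymphocyte markers stayed under 1 CPM in every group, as did 3 of 4 fibroblast or endothelial and 3 of 4 megakaryocyte markers. Mitochondrially encoded genes held 5.10% ± 0.585 of counts in nCas9 cells, 4.53% ± 0.879 in catalytic mutant cells, 1.88% ± 0.126 in intact BE cells under vehicle and 3.19% ± 0.797 in seBE cells under vehicle. Under rapamycin they held 2.11% ± 0.132 in intact BE and 3.58% ± 0.889 in seBE cells. The part of this share in the results below was not tested.

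Most steps for which the 33 genes include more than 1 gene had most of their RNA from 1 of them. Relatives outside the 33, such as the enolase Eno3 and the transporter Slc2a6, are not counted in the shares below. Compared per kilobase of exon, Gapdh, the dehydrogenase of the middle of the pathway, had the highest level of the 33 genes, 606 CPM per kb over all 18 libraries. Pkm, the pyruvate kinase that makes pyruvate, followed at 388 CPM per kb, and the aldolase gene Aldoa at 317 CPM per kb. Aldoa made up 99.8 to 99.9% of the 2 aldolases measured, Eno1 99.9 to 100% of the 2 enolases and Ldha 99.8 to 99.9% of the 2 lactate dehydrogenases, as ranges of group means per kilobase. Hk3, the hexokinase typical of myeloid cells, made up 81.3 to 84.4% of the 3 hexokinases. The glucose transporter Slc2a1 made up 97.7 to 98.1% of the pair, and the lactate transporter Slc16a1 73.1 to 78.9%. The phosphofructokinases, which catalyse the committed step, were spread more evenly, with Pfkl at 38.1 to 47.0%, Pfkp at 29.0 to 37.9% and Pfkm at 23.3 to 24.0%.

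**Figure D1:**
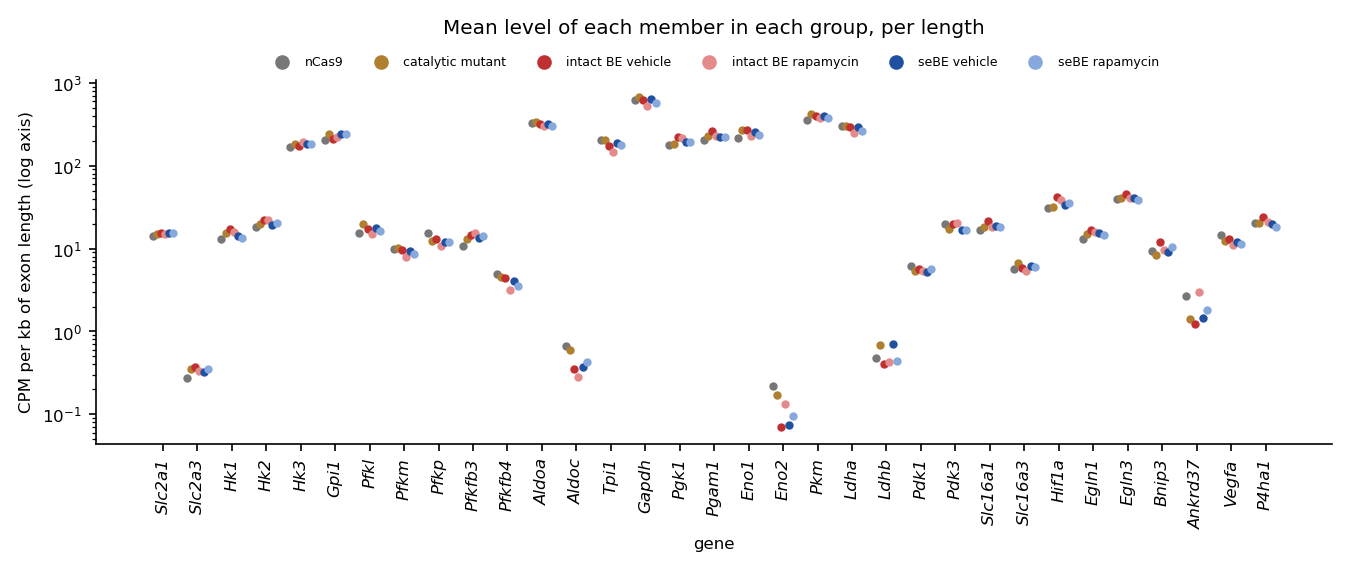
Mean level of each of the 33 genes in each of the 6 groups, in CPM per kilobase of exon on a log axis, with genes in pathway order and 1 point per group. Gapdh, at 606 CPM per kb over all libraries, lies at the top and Eno2, at 0.127, at the bottom, and the 6 groups of an abundant gene lie close together.

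The 5 genes with a mean under 3 CPM were Slc2a3, Aldoc, Eno2, Ldhb and Ankrd37. Eno2, the neuronal enolase, had 2 to 32 counts per library, and Ldhb, the second lactate dehydrogenase, had 4 to 26. Aldoc, Eno2 and Ldhb passed the test in no comparison, although each had a log2 fold change beyond 0.5 in size in at least 1 of them. Processed copies of glycolytic genes are common in the mouse genome and can take reads, but the 11 copies and close relatives found in the table had at most 38 counts in any library.

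Between groups, changes were small. Over the 9 comparisons, 18 of the 33 genes (54.5%) passed the test at least once and 15 never did, against 34.7% of all 14985 genes tested that passed at least once. The 32 calls had log2 fold changes of 0.18 to 1.30 in size, with a median of 0.31, and 30 of them were under 2-fold. In all 32 the libraries of the groups compared did not overlap, which was so for 96.7% of calls over all genes. The summed level of the 16 glycolytic enzyme genes was 1.03% ± 0.0157 of scaled counts in nCas9 cells, 1.15% ± 0.0442 in catalytic mutant cells, 1.10% ± 0.0463 in intact BE cells and 1.11% ± 0.0317 in seBE cells under vehicle. Under rapamycin it was 1.02% ± 0.023 in intact BE cells and 1.05% ± 0.0796 in seBE cells. In bulk RNA, fewer cells expressing a gene and less RNA per cell cannot be told apart.

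**Figure D2:**
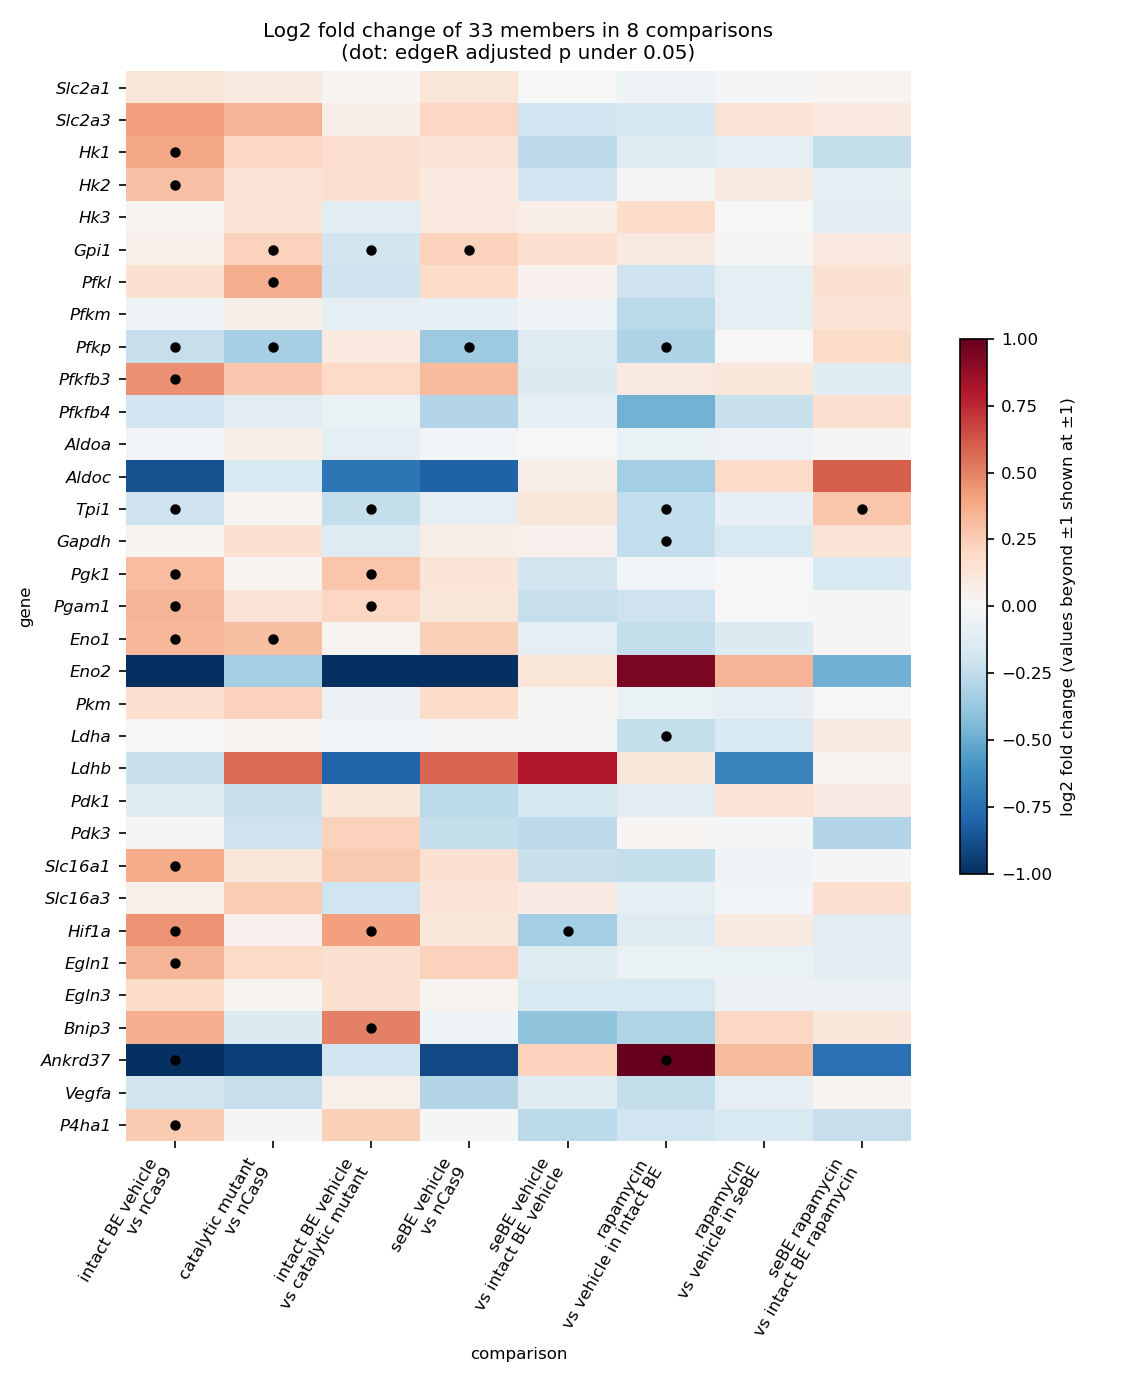
Log2 fold change of the 33 genes (rows, in pathway order) in 8 comparisons (columns), with values beyond 1 in either direction shown at the end of the colour scale and a dot where edgeR's adjusted p was under 0.05. The first column, intact BE against nCas9, holds 13 dots, and the column for rapamycin in seBE holds 0.

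Intact BE cells were compared with nCas9 cells, both under vehicle, to ask what the active editor changes. Of the 33 genes, 10 were higher and 3 lower, against 13.1% and 9.83% of all genes tested. The higher genes were the hexokinases Hk1 and Hk2, the regulator Pfkfb3, the lower-pathway enzymes Pgk1, Pgam1 and Eno1, the lactate transporter Slc16a1, Hif1a, its hydroxylase Egln1, and P4ha1, a collagen prolyl hydroxylase. Pfkp, Tpi1 and Ankrd37 were lower. The median log2 fold change was 0.05 over the 33 genes and -0.037 over all genes tested, and without nCas9 replicate 2 it was 0.13 over the 33.

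Hif1a, the alpha subunit of HIF1, was at 172, 185 and 191 CPM in nCas9 cells and 261, 249 and 238 CPM in intact BE cells. All 3 intact BE libraries lay above all 3 nCas9 libraries. The log2 fold change was 0.45 (SE 0.0821, adjusted p = 0.00013 by edgeR). Egln1, the main oxygen-sensing hydroxylase, moved the same way, from 47.1 ± 3.22 to 59.9 ± 3.66 CPM, with a log2 fold change of 0.34 (SE 0.0964, adjusted p = 0.00833). Egln3, another hydroxylase of the family and itself a known HIF1 target, did not pass the test.

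Pfkfb3, the enzyme that makes the allosteric activator of phosphofructokinase, was at 69.1, 70.5 and 102 CPM in nCas9 cells and 118, 104 and 111 CPM in intact BE cells. The groups did not overlap, but nCas9 replicate 3 lay near the lowest intact BE library. The log2 fold change was 0.46 (SE 0.0998, adjusted p = 0.000951).

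Ankrd37, an ankyrin repeat gene known as a HIF1 target, moved the opposite way to Hif1a. It was at 3.24, 4.68 and 4.49 CPM in nCas9 cells and 1.93, 2.16 and 1.61 CPM in intact BE cells, with a log2 fold change of -1.12 (SE 0.343, adjusted p = 0.0151). These levels stand for 60 to 92 and 30 to 34 counts per library. Ankrd37 overlaps Ufsp2 on the opposite strand, a gene with a mean of 1235 counts against 56.6 for Ankrd37, and since the strand setting of the count is not given in the sources used here, reads of the pair may not be fully separated. Ufsp2 itself was at 78.8 CPM in intact BE and 71.5 CPM in nCas9 cells (log2 fold change 0.14, adjusted p = 0.242). The Ankrd37 call was lost without nCas9 replicate 2 (adjusted p = 0.0541), intact BE replicate 1 (0.0538) or intact BE replicate 3 (0.0809).

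The remaining genes of this comparison given by library were chosen after their values were seen. Pgk1, the first ATP-making enzyme of the pathway, was at 383, 387 and 422 CPM in nCas9 cells and 500.4, 494 and 482 CPM in intact BE cells. Its log2 fold change was 0.31 (SE 0.073, adjusted p = 0.00206). Pgam1, the phosphoglycerate mutase, was at 392, 408 and 426 CPM against 491, 523 and 541 CPM, with a log2 fold change of 0.34 (SE 0.0708, adjusted p = 0.000507). For both enzymes the gap between the groups was wider than the range within either.

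The lower part of the pathway did not move as 1 block. Eno1 was higher by a log2 fold change of 0.33 (adjusted p = 0.0012), but Pkm reached only 0.17 (adjusted p = 0.0787), Gapdh 0.02 (adjusted p = 0.906) and Ldha -0.00 (adjusted p = 0.97). Tpi1, the triose isomerase one step above Gapdh, was at 551, 596 and 524 CPM in nCas9 cells and 486, 464 and 489 CPM in intact BE cells, lower by a log2 fold change of -0.21 (SE 0.0673, adjusted p = 0.0187). Tpi1 lost its call in 7 of 14 alternative settings, among them removal of nCas9 replicate 1 (adjusted p = 0.05, at the threshold), nCas9 replicate 2 (0.15), intact BE replicate 1 (0.0503) or intact BE replicate 2 (0.103).

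At the top of the pathway, Hk1 went from 112 ± 15.9 to 146 ± 6.85 CPM (log2 fold change 0.39, adjusted p = 0.00136) and Hk2, the hexokinase most often tied to HIF1, from 108 ± 12 to 132 ± 3.72 CPM (log2 fold change 0.29, adjusted p = 0.00824). Hk3, far more abundant than either, was at 622 ± 12.5 and 631 ± 13.4 CPM (adjusted p = 0.872). Slc16a1 went from 74.6 ± 8.25 to 96.2 ± 8.17 CPM (log2 fold change 0.37, adjusted p = 0.00934). Without nCas9 replicate 2 the call of Hk2 (adjusted p = 0.09) and that of Slc16a1 (0.0811) were lost, and that of Slc16a1 also without intact BE replicate 1 (0.069). P4ha1 had a log2 fold change of 0.26 (adjusted p = 0.0468), and lost its call without nCas9 replicate 1 or 2 or any 1 intact BE library (0.0594 to 0.176) and with DESeq2 (0.0591). Slc2a1, Pdk1 and Vegfa, all HIF1 targets in textbooks, did not pass the test.

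Pfkp, the platelet-type phosphofructokinase, was at 212, 219 and 188 CPM in nCas9 cells and 182, 175 and 170 CPM in intact BE cells, lower by a log2 fold change of -0.23 (SE 0.0704, adjusted p = 0.015). Its call was lost without nCas9 replicate 1 (0.0761), nCas9 replicate 2 (0.108), intact BE replicate 2 (0.0589) or intact BE replicate 3 (0.0902). Leaving out nCas9 replicate 2 left 7 of these genes called, 7 higher and 0 lower, while no other single library moved the count by more than 1.5 times. Over all genes, the fit without nCas9 replicate 2 called 1503 higher and 1035 lower of 15564, against 1969 and 1473 of 14985 in the main fit. Calls of Hk1, Pfkfb3, Pgk1, Pgam1, Eno1, Hif1a and Egln1 held in all 14 alternative settings.

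**Figure D3:**
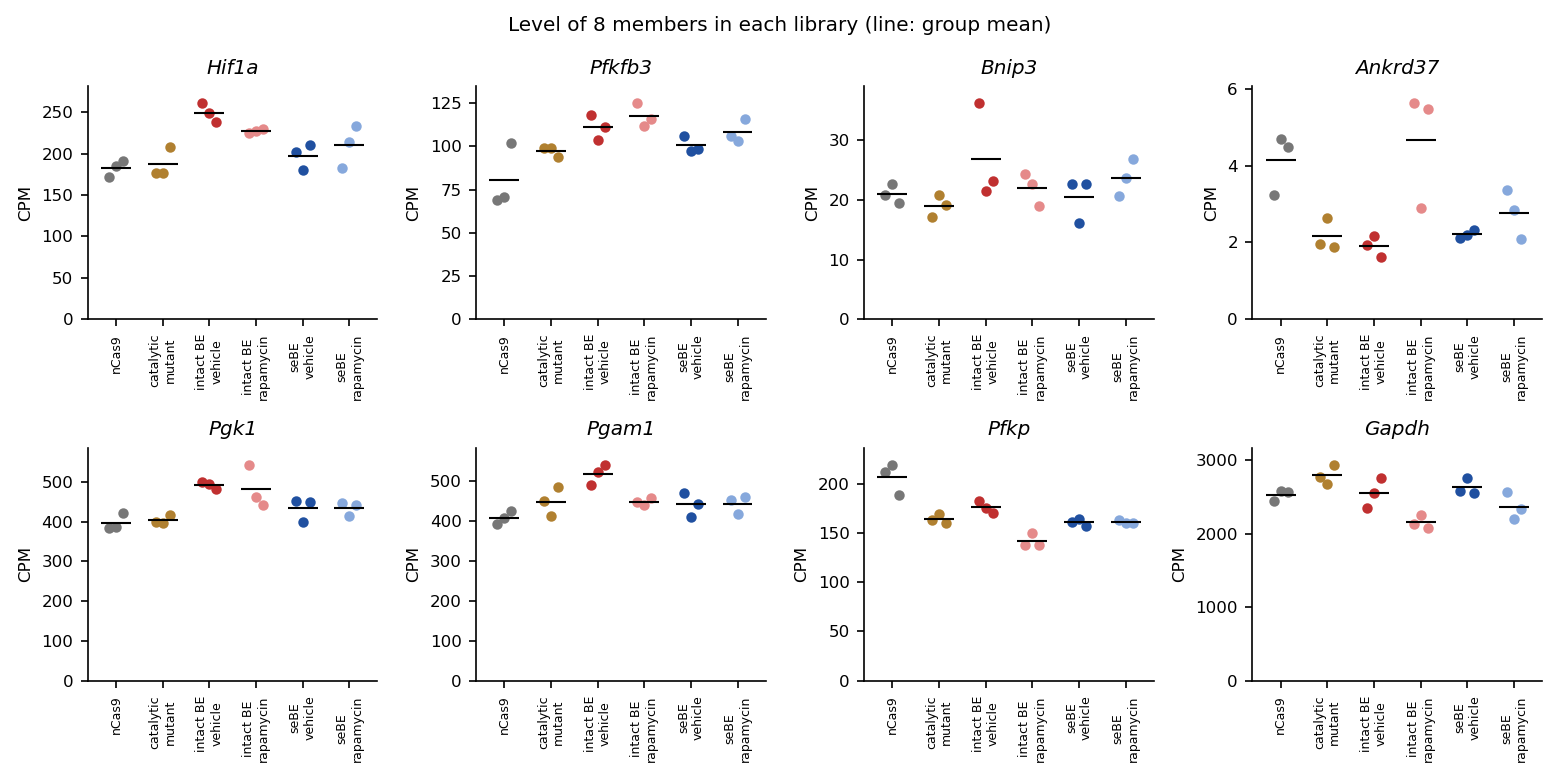
Level of 8 genes in each of the 18 libraries, in CPM on axes that start at 0, with 1 point per library and a line at the group mean. Hif1a, Pgk1 and Pgam1 are highest in the intact BE groups under vehicle (249.5, 492 and 518 CPM on average), Pfkp is highest in nCas9 cells (206 CPM), and 1 intact BE library (36.2 CPM) lies far above the rest for Bnip3.

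Catalytic mutant cells were compared with nCas9 cells to ask what the editor protein does without deamination. Of the 33 genes, 3 were higher (Gpi1, Pfkl and Eno1) and 1 lower (Pfkp), against 2.24% and 2.06% of all genes tested, and the median was 0.07 against -0.004. Over the 33 genes it was 0.02 without mutant replicate 3 and 0.12 without mutant replicate 2. This comparison shares its nCas9 libraries with the one above. Pfkl, the liver-type phosphofructokinase, was at 101, 103 and 105 CPM in nCas9 cells and 127, 137 and 132 CPM in mutant cells, with a log2 fold change of 0.36 (SE 0.0846, adjusted p = 0.0118). Pfkp was at 163, 169 and 159.8 CPM in mutant cells, below the 188 to 219 CPM of nCas9 cells, a log2 fold change of -0.33 (SE 0.0706, adjusted p = 0.00564). These genes were chosen after their values were seen. Pfkm, the muscle type, was at 32.6 ± 1.17 and 33.9 ± 2.27 CPM (adjusted p = 0.852). It overlaps Senp1 on the opposite strand, which had more counts (a mean of 1934 against 564).

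Gpi1, the glucose phosphate isomerase, had a log2 fold change of 0.23 (adjusted p = 0.0291) and Eno1 one of 0.30 (adjusted p = 0.015) in this comparison. Hif1a was at 187 ± 18 CPM in mutant cells (log2 fold change 0.04, adjusted p = 0.87). These calls rest on few libraries. Without nCas9 replicate 2 edgeR called 0 of the 33 genes, with Pfkl at adjusted p = 0.0551, Pfkp at 0.0655, Eno1 at 0.066 and Gpi1 at 0.134. At an unadjusted p under 0.05 that fit counted 10 of the 33 and 2362 of all 15564 genes in it. Without nCas9 replicate 1 it called 2, with Eno1 (0.0675) and Gpi1 (0.068) lost, and without mutant replicate 3 it called 2, with Eno1 (0.0788) and Gpi1 (0.0818) lost. Gpi1 was also lost without mutant replicate 1 (0.0621). Without both nCas9 replicate 2 and mutant replicate 3 it called 0 of the 33, 8 of which had an unadjusted p under 0.05 beside 2166 of 15501 genes, and it called 40 genes in all against 644. These 2 libraries differed most from the others of their group, by a root mean square of 0.784 and 0.695 on the log2 scale, but nCas9 replicate 3 was nearly as far, at 0.774.

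Pfkp overlaps Pitrm1 on the opposite strand, with mean counts of 3097 for Pfkp and 3304 for Pitrm1. Pitrm1 itself was at 177 CPM in nCas9, 184 in mutant and 193 in intact BE cells, and did not pass the test against nCas9 (adjusted p = 0.786 for the mutant and 0.259 for intact BE).

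Intact BE cells were compared with catalytic mutant cells, which differ from them in deaminase activity. Of the 33 genes, 4 were higher (Pgk1, Pgam1, Hif1a and Bnip3) and 2 lower (Gpi1 and Tpi1), against 11.6% and 9.33% of all genes tested. The share of higher calls among the 33 genes, 12.1%, was close to the background, and the median was 0.03 against -0.025. Leaving out intact BE replicate 1 turned it to -0.01, and leaving out mutant replicate 3 gave 0.07. Hif1a was at 177, 177 and 208 CPM in mutant cells, below the 238 to 261 CPM of intact BE cells, with a log2 fold change of 0.41 (SE 0.0822, adjusted p = 0.000517). Pgk1 was at 399, 397 and 417 CPM in mutant cells, below all 3 intact BE libraries, with a log2 fold change of 0.28 (SE 0.073, adjusted p = 0.0048). These 2 calls held in all 14 alternative settings.

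Bnip3, a mitochondrial receptor for mitophagy and a classic HIF1 target, was at 17.1, 20.9 and 19.1 CPM in mutant cells and 36.2, 21.5 and 23.1 CPM in intact BE cells. Intact BE replicate 1 stood far above the rest. The log2 fold change was 0.50 (SE 0.164, adjusted p = 0.0261), and without that library it was 0.23 (adjusted p = 0.471). It was also lost without mutant replicate 1 (0.115) or mutant replicate 3 (0.0548). Tpi1 had a log2 fold change of -0.24 (adjusted p = 0.0106), Pgam1 one of 0.21 (adjusted p = 0.032) and Gpi1 one of -0.18 (adjusted p = 0.0403). Gpi1 lost its call without any 1 of the 3 mutant libraries or intact BE replicate 1 or 2 (0.0538 to 0.181), Tpi1 without intact BE replicate 2 (0.0565), and Pgam1 without mutant replicate 1 (0.0715), mutant replicate 2 (0.223), intact BE replicate 2 (0.103) or intact BE replicate 3 (0.143). Without mutant replicate 1 or intact BE replicate 2, 3 of the 33 genes were called.

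Under vehicle, where the split editor is not switched on, seBE cells were compared with nCas9 cells. Of the 33 genes, 1 was higher (Gpi1) and 1 lower (Pfkp), 3.03% each. Among all genes tested the shares were near this, at 2.64% and 1.93%. Gpi1 was at 1313, 1273 and 1354 CPM in nCas9 cells and 1570.2, 1547 and 1496 CPM in seBE cells, a log2 fold change of 0.23 (SE 0.063, adjusted p = 0.0309). Pfkp was at 161, 164 and 157 CPM in seBE cells, below all nCas9 libraries, with a log2 fold change of -0.36 (SE 0.0705, adjusted p = 0.00266). The nCas9 libraries enter this comparison too, so the lower Pfkp of the mutant, intact BE and seBE cells is measured against the same 3 libraries. The Pfkp call held in all 14 alternative settings, while Gpi1 lost its call in 7, among them removal of nCas9 replicate 1 (adjusted p = 0.0782), nCas9 replicate 2 (0.146) or any 1 seBE library (0.0601 to 0.148). Without nCas9 replicate 3, 4 of the 33 genes were called, 3 higher and 1 lower. Calls over all genes rose in that fit too, from 395 higher and 289 lower of 14985 to 559 and 348 of 15468.

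Against intact BE cells under vehicle, seBE cells under vehicle had 0 of the 33 genes higher and 1 lower, against 1.68% and 2.32% of all genes tested. The lower gene was Hif1a, at 202, 179.8 and 210.4 CPM in seBE cells and 238 to 261 CPM in intact BE cells, with a log2 fold change of -0.34 (SE 0.082, adjusted p = 0.0183). The call was lost without intact BE replicate 1 (adjusted p = 0.138), intact BE replicate 2 (0.0625) or seBE replicate 2 (0.214). A fit of the compared libraries alone called 5 of the 33 genes, 1 higher and 4 lower, while its calls over all genes went from 598 to 1837.

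After 24 h of rapamycin, intact BE cells had less RNA of 4 enzymes, while others that act between them in the pathway did not pass the test. Among the latter were Aldoa (log2 fold change -0.07, adjusted p = 0.758 by edgeR), Pgk1 (-0.03, 0.921) and Pkm (-0.07, 0.742). Of the 33 genes, 4 were lower (Pfkp, Tpi1, Gapdh and Ldha) and 1 was higher (Ankrd37), against 1.34% and 1.98% of all genes tested. In all, 26 of 33 genes had a negative log2 fold change, with a median of -0.13 against -0.004 over all genes tested. A fit of the compared libraries alone called 9 of them, 2 higher and 7 lower, while its calls over all genes went from 497 to 873.

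Gapdh was at 2352, 2549 and 2760 CPM under vehicle and 2129, 2256 and 2069 CPM under rapamycin, and it was chosen, like the next 3 genes, after its values were seen. The log2 fold change was -0.25 (SE 0.0693, adjusted p = 0.0366). Ldha, which reduces pyruvate to lactate, was at 985, 981 and 969.8 CPM under vehicle and 865, 834 and 778 CPM under rapamycin, a log2 fold change of -0.24 (SE 0.0638, adjusted p = 0.0219). Both genes were lower in 3 of 3 rapamycin libraries than in any vehicle library.

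Tpi1 was at 486, 464 and 489 CPM under vehicle and 426, 394 and 392 CPM under rapamycin, with a log2 fold change of -0.25 (SE 0.0674, adjusted p = 0.0299). Pfkp was at 182, 175 and 170 CPM against 138, 149.8 and 138 CPM, with a log2 fold change of -0.31 (SE 0.0706, adjusted p = 0.00725). Pitrm1, which overlaps Pfkp, had a log2 fold change of -0.06 (adjusted p = 0.804). Pfkfb4, Pfkm, Eno1 and Pgam1 had log2 values of -0.47, -0.27, -0.24 and -0.21, which did not pass the test (adjusted p = 0.0942, 0.236, 0.0717 and 0.105). Pfkl, the phosphofructokinase with the largest share, had a value of -0.21 and did not pass either (adjusted p = 0.208).

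Ankrd37 was the 1 gene called higher, while Hk3, with 3 of 3 rapamycin libraries above all vehicle libraries (717 ± 35 against 631 ± 13.4 CPM), did not pass (adjusted p = 0.197). Ankrd37 was at 1.93, 2.16 and 1.61 CPM under vehicle and 5.62, 2.9 and 5.46 CPM under rapamycin, where replicate 2 lay nearest the vehicle libraries. The log2 fold change was 1.30 (SE 0.341, adjusted p = 0.0229). Ufsp2, on the opposite strand, fell at the same time from 78.8 to 54.9 CPM (log2 fold change -0.52, adjusted p = 9.39e-05). Hif1a was at 225, 227 and 229.7 CPM under rapamycin, under each vehicle library, but its log2 fold change of -0.13 did not pass the test (adjusted p = 0.493).

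These drug calls were sensitive to single libraries. Leaving out any 1 of the 6 intact BE libraries left 1 to 3 of the 5 genes called. The count was 1 without vehicle replicate 2, vehicle replicate 3 or rapamycin replicate 3, 2 without vehicle replicate 1 or rapamycin replicate 1, and 3 without rapamycin replicate 2. Calls over all genes fell in each of these fits too, from 296 higher and 201 lower. They fell most without rapamycin replicate 1, to 135 and 79, and least without rapamycin replicate 2, to 216 and 182. Pfkp kept its call in 12 of 13 settings, the exception being removal of rapamycin replicate 1 (adjusted p = 0.0592). Ankrd37 lost its call without any 1 vehicle library or rapamycin replicate 1 or 3 (0.0803 to 0.163), and Gapdh without vehicle replicate 2 or 3 or rapamycin replicate 1 or 3 (0.125 to 0.286). Ldha (0.054 to 0.137) and Tpi1 (0.0697 to 0.135) lost theirs without any 1 vehicle library or rapamycin replicate 2 or 3.

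**Figure D4:**
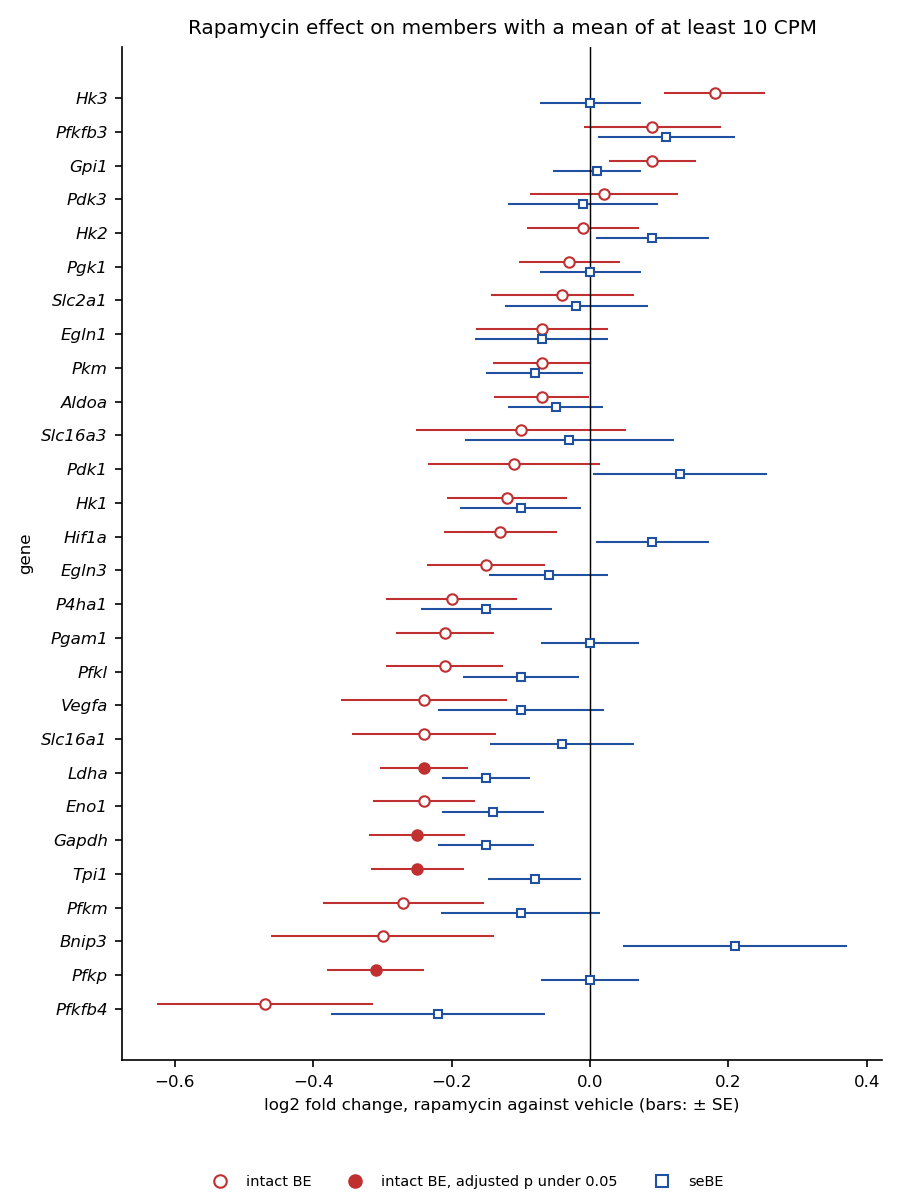
Log2 fold change of rapamycin against vehicle (x axis, with SE bars) for the 28 genes with a mean of at least 10 CPM, in intact BE (circles, filled where edgeR's adjusted p was under 0.05) and seBE cells (squares). Most circles lie below 0, with Pfkp, Tpi1, Gapdh and Ldha filled, while no square passed the test.

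In seBE cells, where rapamycin switches the editor on, 0 of the 33 genes passed the test, against 0% higher and 0% lower of all genes tested with edgeR. At an unadjusted p under 0.05 edgeR counted 493 of 14985 genes, 2 of them among the 33, and without rapamycin replicate 1 it counted 1552 of 15591 genes, 7 of them among the 33. DESeq2 called 1 gene and 0 of the 33. The pair at unadjusted p under 0.05 were Gapdh and Ldha. Gapdh was at 2578, 2759.8 and 2554 CPM under vehicle and 2568, 2196 and 2332 CPM under rapamycin, with overlapping groups and a log2 fold change of -0.15 (SE 0.0693, adjusted p = 0.999). Ldha was at 974, 972 and 969 CPM under vehicle and 930.2, 829 and 870.1 CPM under rapamycin, where the groups did not overlap, with a log2 fold change of -0.15 (SE 0.0638, adjusted p = 0.999). Pfkp was at 161 CPM in both arms (log2 fold change 0.00, adjusted p = 0.999). The median over the 33 genes was -0.03, and -0.08 to 0.01 with single libraries left out.

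The difference between the 2 drug effects was tested directly. Of the 33 genes edgeR called 0, against 0.0734% higher and 0.113% lower of all genes tested, and DESeq2 called 75 genes and 0 of the 33. At an unadjusted p under 0.05 there were 1044 of 14985 genes and 4 of the 33, Pfkp, Pgam1, Bnip3 and Ankrd37. The 4 became 2 without intact BE vehicle replicate 1 or 2, intact BE rapamycin replicate 3, seBE vehicle replicate 2 or seBE rapamycin replicate 3. The drug effect on Pfkp was higher in seBE than in intact BE by 0.31 on the log2 scale (SE 0.0997, adjusted p = 0.308), and that on Ankrd37 lower by -0.98 (SE 0.48, adjusted p = 0.714). That the drug calls came in intact BE and not in seBE is therefore not shown to be a difference between the editors.

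Under rapamycin, seBE cells set against intact BE cells had 1 of the 33 genes higher and 0 lower, against 2.04% and 2.66% of all genes tested. The higher gene was Tpi1, at 517, 485 and 471 CPM in seBE cells and 426, 394 and 392 CPM in intact BE cells, with a log2 fold change of 0.28 (SE 0.0673, adjusted p = 0.0103). The call was lost without intact BE rapamycin replicate 3 (adjusted p = 0.0634) and in a fit of the compared libraries alone (0.0504). Hif1a was at 183, 214 and 233 CPM in seBE cells, overlapping the intact BE libraries (adjusted p = 0.496).

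Pathway genes outside the 33 were counted by list. Among 22 tested genes of the side and exit branches of glycolysis, 2 were higher and 4 lower in intact BE than in nCas9 cells, against 13.1% and 9.83% of all genes tested. The higher ones were Gpd2, the mitochondrial glycerol phosphate dehydrogenase (log2 fold change 0.59, adjusted p = 1.52e-05), and the glycogen synthase Gys1 (0.29, adjusted p = 0.0309). Lower were Pck2, the mitochondrial PEP carboxykinase (-0.73, adjusted p = 1.52e-05), the muscle enolase Eno3 (-1.40, adjusted p = 0.00046) and the transporter Slc2a6 (-0.46, adjusted p = 0.0147), as the first 3 by adjusted p. Against the catalytic mutant, 1 was higher and 4 lower, against 11.6% and 9.33% of all genes tested. Among 11 tested genes for pyruvate entry into mitochondria, 3 were higher and 0 lower in intact BE than in nCas9 cells, against the same shares of all genes, and with so few genes nothing is read from the count. They were Dlat (0.39, adjusted p = 0.000592) and Dld (0.23, adjusted p = 0.0267), both subunits of pyruvate dehydrogenase, and Pdpr (0.91, adjusted p = 0.000768), which regulates its phosphatase. Against the catalytic mutant, 3 genes of this list were higher and 0 lower, beside 11.6% and 9.33% of all genes tested.

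Of 29 tested genes of the HIF system and other hypoxia-induced genes, 5 were higher and 5 lower in intact BE than in nCas9 cells, against 13.1% and 9.83% of all genes tested. Arnt, the partner subunit of HIF1 alpha, was higher (log2 fold change 0.41, adjusted p = 0.0018), as were the demethylase Kdm4c (0.62, adjusted p = 0.000422) and Cited2, which competes with HIF1 for its coactivator (0.34, adjusted p = 0.00224). Wsb1 (-0.47, adjusted p = 0.000398), Ankzf1 (-0.57, adjusted p = 0.00236) and the cytokine Mif (-0.26, adjusted p = 0.0113) were lower. Against the catalytic mutant, 4 genes of this list were higher and 3 lower, beside 11.6% and 9.33% of all genes tested.

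Under rapamycin in intact BE cells, where 1.98% of all genes tested were higher and 1.34% lower, the side branches had 1 higher gene, the glycogen phosphorylase Pygl (0.48, adjusted p = 3e-05), and 1 lower, Pck2 (-0.56, adjusted p = 0.00197). In the hypoxia list Bnip3l, the mitophagy relative of Bnip3, was higher (0.44, adjusted p = 0.00223), and Stc2 (-1.01, adjusted p = 3.57e-06) and Mif (-0.42, adjusted p = 0.00061) were lower. The pyruvate list had 0 higher and 1 lower of 11 tested genes, and that gene is not named. Between seBE and intact BE cells under rapamycin, 2.04% of all genes tested were higher and 2.66% lower. The side branches had 2 higher and 2 lower of 22 tested genes, and the pyruvate list 1 and 0 of 11. In the hypoxia list 2 were higher and 2 lower of 29. Not all of these are named. Pck2 (0.64, adjusted p = 0.000454), Stc2 (0.67, adjusted p = 0.00133) and Mif (0.46, adjusted p = 0.00031) were higher in seBE. Pygl (-0.36, adjusted p = 0.00176), Bnip3l (-0.41, adjusted p = 0.00469) and Ndrg1, a stress-responsive gene (-0.88, adjusted p = 0.00358), were lower. The last comparison shares its intact BE rapamycin libraries with the drug comparison in intact BE cells.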

How the data were processed

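Per the submitters' processing notes, the authors trimmed reads with fastp 1.0.1, aligned them to mouse genome GRCm39 with STAR 2.7.1a, used SAMtools 1.9 and counted with featureCounts of Subread 2.0.3. DESeq2 is also named there. The deposited values are raw counts of reads per gene. The annotation release, the strand setting and the treatment of multi-mapping reads were not given in the sources used here.

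Symbols were matched for 52073 of 56748 IDs. In R 4.3.3, edgeR 4.0.16 with filterByExpr left 14985 genes holding 99.93% of counts. All 18 libraries entered 1 fit of 6 group means scaled by TMM and tested with edgeR's robust quasi-likelihood F test, and p-values were adjusted by Benjamini-Hochberg over all genes tested, with a threshold of 0.05. The biological coefficient of variation was 13.3%. Each SE was the log2 fold change divided by the root of its F statistic. Library totals of 13835979 to 23284932 counts set the precision of low genes. Exon lengths came from GENCODE M21 on GRCm38, another release than the authors used, and promoters from RefSeq on GRCm38.p6. The procedure was also run, for some of the comparisons, on simulated counts that gave every gene the same spread between replicates. That run does not reproduce how single libraries of these data differed.

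Libraries are labelled as biological replicates, with no separate cultures named, so the p-values measure only how far these samples spread, which may be technical. The 33 genes and the other gene lists were chosen with earlier results of these data known. Genes were given by library where they passed the test with a log2 fold change of at least 0.4 in size and no overlap between groups (Hif1a, Pfkfb3, Bnip3 and Ankrd37). Genes of the other lists were named in part of the comparisons only, up to 3 per direction by adjusted p, so not every called gene of those lists is named. Alternatives were DESeq2 1.42.0, RLE size factors, no filter, a replicate block, the compared libraries alone, leaving out each library, and, added after seeing the data, removal of a trend on length (spline with 4 degrees of freedom), the same with the block, and leaving out together nCas9 replicate 2 and mutant replicate 3, each the library of its group that differed most from the others.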

Additional observations from a re-analysis of the deposited data

How the results depend on the processing

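Of the 32 calls, 10 held in all alternatives run for their comparison, 22 were lost in at least 1, and 0 reversed direction. Leaving out single libraries gave 7 to 14 genes called of the 33 for intact BE against nCas9, 0 to 6 for the catalytic mutant against nCas9, 3 to 6 for intact BE against the mutant, 1 to 4 for seBE against nCas9, 0 to 1 for seBE against intact BE under vehicle, 1 to 3 for rapamycin in intact BE and 0 to 1 for seBE against intact BE under rapamycin. It gave 0 for rapamycin in seBE and for the difference between drug effects. DESeq2 called 4 for seBE against nCas9 and 3 for seBE against intact BE under vehicle. Without a filter, seBE against nCas9 had 4. Without nCas9 replicate 2 and mutant replicate 3 together, the mutant against nCas9 had 0 and seBE against nCas9 had 1. Compared libraries alone gave 5 for seBE against intact BE under vehicle, 9 for rapamycin in intact BE and 0 for seBE against intact BE under rapamycin. With a length trend removed, seBE against nCas9 had 1, seBE against intact BE 3 under vehicle and 2 under rapamycin. Over all genes, the calls behind the background shares, 644 for the mutant and 684 for seBE against nCas9, 3141 for intact BE against the mutant, 598 and 703 for seBE against intact BE under vehicle and rapamycin, 497 for rapamycin in intact BE and 28 for the difference in drug effects, moved over the alternatives to as far as 40 and 1061, 122 and 1089, 1662, 52 and 1837, 256 and 1114, 214 and 873, and 11 and 79. For intact BE against nCas9, calls over all genes were 1969 higher and 1473 lower. They moved as far as 1415 and 916 without intact BE vehicle replicate 1, and 2151 and 1577 with the replicate block. The median over the 33 genes moved with single libraries left out, to 0.06 to 0.13 for intact BE against nCas9, 0.02 to 0.12 for the mutant against nCas9, -0.01 to 0.07 for intact BE against the mutant and -0.19 to -0.12 for rapamycin in intact BE. The cause of these shifts was not tested. The length alternative could not be run as planned, since the count table has no length column, and lengths of another annotation release were used.

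With the replicate number as a block, seBE had 4 genes called against nCas9 and 3 against intact BE under vehicle, and none of the 32 calls was lost. With the block and the length trend together, intact BE against the mutant had 11 and seBE against nCas9 4. With both, seBE compared to intact BE had 6 under vehicle and 4 under rapamycin. Over 45 same-number pairs, deviations from group means correlated at -0.07 to 0.11 (median 0.02), and 1 pair exceeded 0.1. Pairs of unlike number correlated at -0.09 to 0.06 (median -0.01). With the block, edgeR's calls over all genes rose in each comparison that had any. For the mutant against nCas9 they went from 335 higher and 309 lower to 519 and 466. Such weak correlations over all genes cannot decide whether the numbers pair the samples.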
